A study of Mus musculus with 9 samples.

Results

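The enzymes that handle foreign chemicals, apart from the Cyp1 family, made up 106 of the 18875 genes in an RNA-seq table of whole mouse lung. They were taken by gene symbol from 7 families: cytochrome P450 families Cyp2, Cyp3 and Cyp4, flavin monooxygenases (Fmo), carboxylesterases (Ces), sulfotransferases (Sult) and UDP-glucuronosyltransferases (Ugt). The levels are TPM, a share of all transcripts that is already divided by transcript length. Levels of different genes can be set side by side only roughly, given the nuclease step and the length differences between libraries described below. Of the 106 genes, 41 reached 1 TPM in at least 1 of the 9 libraries, 37 did so in at least 3 libraries and were tested, and 30 did so in all 9. A further 55 were above 0 but under 1 TPM in every library, and 10 were listed at 0 throughout.

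The mice were wild-type BALB/c and fell into 3 groups of 3 libraries. In the long-term PM2.5 group, fine particulate matter was instilled into the nose at 10 mg/kg every 3 days, 6 times in all, and in the short-term PM2.5 group the same dose was given 1 time. The controls are labelled as long-term PBS, a saline buffer, so no control matches the short-term schedule, and differences of that group from PBS hold both the particles and the schedule. The time from the last instillation to collection, the age and the sex of the mice are not given in the sources used here. No label says that the libraries of a group come from separate mice, so the p-values reflect nothing beyond the spread among these libraries.

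Cytochromes P450 and flavin monooxygenases add oxygen to lipophilic compounds, drawing electrons from NADPH, in the P450 case through the reductase Por. Carboxylesterases split ester and amide bonds, while sulfotransferases and glucuronosyltransferases attach sulfate or glucuronic acid, which makes products easier to excrete. The liver is the main site of these reactions, and in the mouse lung the non-ciliated club cells of the airways are known for their P450 content. Many of the same enzymes also act on fatty acids, steroids and signalling lipids made by the body.

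Whole-library facts limit all of the values below. Reads per library cannot be recovered from TPM, so the depth and the counting error are unknown. The short-term libraries held less of long transcripts: from the shortest 20% to the longest 20% of tested genes, the log2 level relative to PBS dropped by 1.43, 0.65 and 0.87 in replicates 1 to 3, and in the long-term libraries by values between 0.13 and 0.20. Short-term replicate 1 also had the fewest genes at 1 TPM, 12560 against 13175 to 13930 elsewhere. The median of all tested genes in short-term against PBS was -0.34 on the log2(TPM + 1) scale as deposited, and -0.02 after each library was corrected for transcript length and GC content. That correction also made the mean of the genes it covered equal in all libraries, so the smaller median followed by construction. Median-ratio and quantile scalings, which use neither length nor GC, gave -0.05 and -0.02. Corrected fold changes thus hold this centring as well. Fold changes below are on that log2(TPM + 1) scale, which understates changes of low genes, and adjusted p-values are from limma over all 13991 tested genes. "Corrected" refers to values after that length and GC correction. All 5 markers of whole lung were at 1 TPM or more in every library. Library preparation included DSN processing, a nuclease step that depletes the most abundant transcripts. Whether it acted alike in each library cannot be read from TPM.

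Cyp2f2, the club cell P450 that activates naphthalene, ranked 49 among all genes by mean TPM and held more than any other gene of the 7 families. The genes listed from highest to lowest after it, by their mean over 9 libraries, were Cyp4b1, Ces1d, Fmo1, Fmo2 and Cyp2b10, and these 6 were the only members with a mean of at least 100 TPM. A further 10 had a mean of at least 10 TPM. By family, 9 of 36 Cyp2 genes were tested, 8 of 17 Cyp4, 5 of 6 Fmo, 8 of 15 Ces, 4 of 14 Sult and 3 of 13 Ugt. None of the 5 Cyp3 genes, the family that dominates drug oxidation in liver, was tested: Cyp3a13 reached 1.03 TPM in 1 library, while Cyp3a57 and Cyp3a59 stayed at or below 0.12 TPM. Of 15 hepatocyte markers, 2 were at 1 TPM in all libraries and 1, Fgb, was at 0 in all, and their summed level was 55.0 to 67.9 TPM after PBS, 65.7 to 77.5 TPM after short-term and 34.5 to 46.2 TPM after long-term PM2.5.

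**Figure D1:**
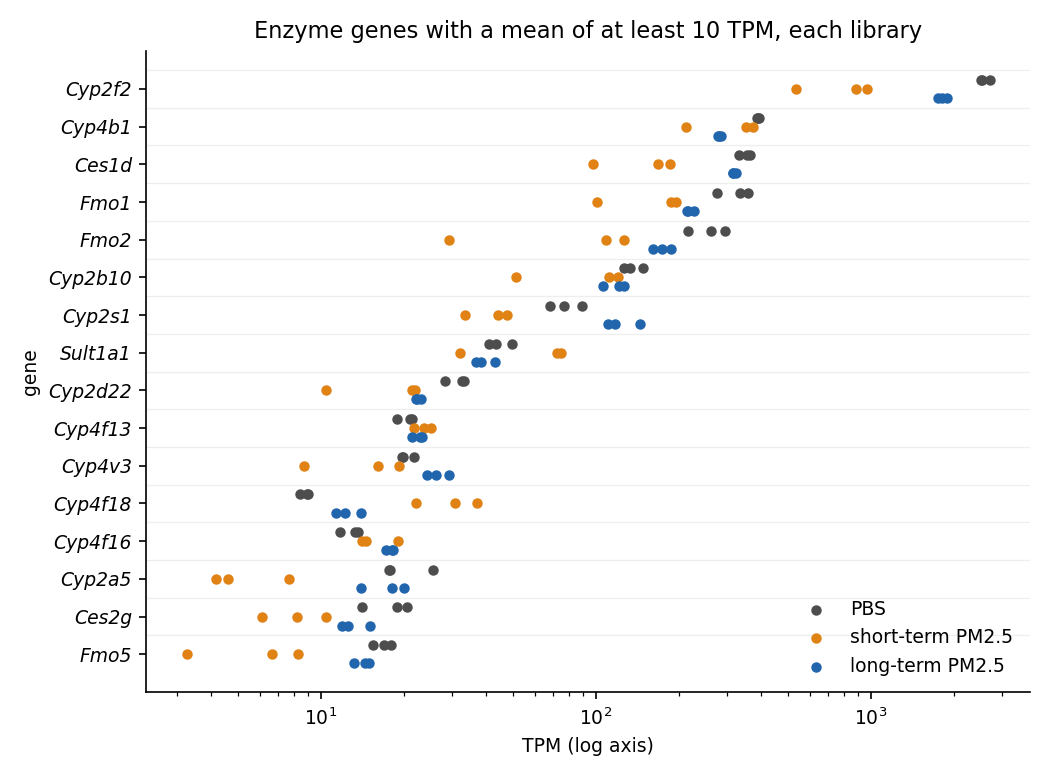
Level of the 16 genes with a mean of at least 10 TPM, on a logarithmic axis in TPM, with 1 point for each of the 9 libraries, coloured by group. Cyp2f2 lies highest in every group, and the short-term points lie below the PBS points for Cyp2f2, Ces1d, Fmo1, Fmo2, Cyp2s1, Cyp2a5, Ces2g and Fmo5, among others, and far above them for Cyp4f18.

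The summed level of all 106 genes was 4387, 4455 and 4435 TPM after PBS, 1254, 2275 and 2139 TPM after short-term PM2.5 and 3295, 3305 and 3468 TPM after long-term PM2.5. The 3 groups did not overlap, with PBS highest and short-term lowest. Cyp2f2 carried much of this sum, and without it the group means were 1843 ± 101 TPM after PBS, 1094 ± 326 TPM after short-term and 1533 ± 43.9 TPM after long-term PM2.5 (SD, n = 3). In bulk tissue, fewer cells of a type and less RNA per cell cannot be told apart.

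The stretch of 250 bases before the transcript start in the RefSeq promoter table is given for 4 genes that stand for the patterns described below: Cyp2f2, low in both exposure groups, Cyp2a5, low after short-term PM2.5, Cyp2s1, on opposite sides of PBS in the 2 exposure groups, and Cyp4f18, high after short-term PM2.5. The sequences are from RefSeq on GRCm38.p6 and run 5′ to 3′, with matches to any of 4 motifs in capitals. For Cyp4f18 that start lies inside the gene span given below, so its window overlaps the outer end of the gene.
Cyp2f2, chr7:27119705-27119954, plus strand: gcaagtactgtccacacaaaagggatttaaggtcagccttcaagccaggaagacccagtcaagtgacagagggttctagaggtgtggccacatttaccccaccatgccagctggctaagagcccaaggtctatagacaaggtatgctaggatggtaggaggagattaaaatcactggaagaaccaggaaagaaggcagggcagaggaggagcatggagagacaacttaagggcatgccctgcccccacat
Cyp2a5, chr7:26835089-26835338, plus strand: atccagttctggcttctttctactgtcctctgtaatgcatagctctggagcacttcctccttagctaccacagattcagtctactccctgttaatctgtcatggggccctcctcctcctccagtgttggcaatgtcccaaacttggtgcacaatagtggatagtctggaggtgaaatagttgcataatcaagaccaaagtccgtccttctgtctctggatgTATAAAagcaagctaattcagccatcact
Cyp2s1, chr7:25816526-25816775, minus strand: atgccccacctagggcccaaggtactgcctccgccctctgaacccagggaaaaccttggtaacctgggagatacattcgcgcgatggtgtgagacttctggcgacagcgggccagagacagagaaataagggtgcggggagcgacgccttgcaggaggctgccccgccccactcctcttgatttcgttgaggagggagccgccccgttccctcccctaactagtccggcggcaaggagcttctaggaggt
Cyp4f18, chr8:72009627-72009876, minus strand: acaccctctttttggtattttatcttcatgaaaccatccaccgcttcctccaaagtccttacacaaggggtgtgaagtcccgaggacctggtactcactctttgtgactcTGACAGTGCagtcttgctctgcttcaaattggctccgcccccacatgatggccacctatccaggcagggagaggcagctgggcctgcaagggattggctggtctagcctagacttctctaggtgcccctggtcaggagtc
The motifs were GCGTG, the core bound by the aryl hydrocarbon receptor with Arnt, TGACNNNGC, the core of the antioxidant response element, TGTTTAC, a forkhead motif, and TATAAA, the TATA box, each searched on both strands in windows from 250 bases before to 50 bases after the start, and no motif contains another. Cyp2a5 held TATAAA starting 29 bases before the start, and Cyp4f18 held TGACAGTGC starting 140 bases before it. Windows were found for 28 of the 37 tested genes (30 windows). GCGTG was in 26.7% of them and in 32.4% of 32851 windows of the genome, TGACNNNGC in 10% and 12.4%, TGTTTAC in 6.67% and 3.65%, and TATAAA in 16.7% and 13.6%. These matches describe letters only.

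After long-term PM2.5, 2 tested genes rose against PBS, the carboxylesterase Ces2c and the P450 Cyp2s1, and none fell. Ces2c met the filter on low values only through the long-term libraries, where it is high, so its call lends no support to a difference. The count is 5.41% of the 37 genes rising, against 9.51% of all tested genes rising and 1.72% falling. At an unadjusted p under 0.05 in limma, 5 genes were higher and 4 lower. The share of all tested genes is not given here, so these counts cannot be read as a difference of the enzymes. The median log2 fold change was -0.13 over the 37 genes and 0.03 over all tested genes.

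Cyp2s1, a P450 of epithelia that is known to be induced through the aryl hydrocarbon receptor, lies at chr7:25802469-25816525 (GRCm38.p6). Its level was 68.2, 89.2 and 76.7 TPM after PBS, 33.5, 44.0 and 47.3 TPM after short-term and 111, 117 and 144 TPM after long-term PM2.5. The 3 groups did not overlap: every long-term library was above every PBS library, and every short-term library was below. Against PBS, the log2 fold change was 0.66 ± 0.16 (SE) after long-term PM2.5, with a limma adjusted p of 0.0252. It was -0.90 ± 0.16 after short-term PM2.5, with a limma adjusted p of 0.00195. The direct contrast of long-term with short-term PM2.5 gave 1.56 ± 0.16, with a limma adjusted p of 0.000159. Corrected, the 3 values were 0.63, -0.62 and 1.25, and each passed the test. The rise after long-term PM2.5 did not pass in 5 of the 9 fits that each left out 1 library: 0.57 without PBS replicate 1 and 0.65 without PBS replicate 3, with limma adjusted p of 0.125 and 0.0820, and 0.74, 0.70 and 0.55 without long-term replicates 1, 2 and 3, with limma adjusted p of 0.0503, 0.0644 and 0.107.

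Ces2c, a carboxylesterase of the intestinal type, was the other gene called. It stood at 0.94, 0.74 and 0.36 TPM after PBS, 0.16, 0.25 and 0.21 TPM after short-term and 3.04, 1.64 and 2.0 TPM after long-term PM2.5. Only the long-term libraries reached 1 TPM, so Ces2c met the filter through them alone. The p-values of Ces2c here thus lend no support to a difference. No groups overlapped. The log2 fold change of long-term against PBS was 0.93 ± 0.18 (SE, limma adjusted p = 0.00733), and 0.74 corrected (limma adjusted p = 0.0139). Against short-term PM2.5, long-term libraries were higher by 1.40 ± 0.18 (limma adjusted p = 0.000447). The summed goblet cell markers also moved with the long-term group, 235 to 302 TPM against 11.8 to 19.9 TPM after PBS and 15.0 to 32.2 TPM after short-term PM2.5, with 4 of the 7 markers at 1 TPM in all libraries. The summed macrophage markers were 855 to 1132 TPM in the long-term group against 288 to 522 TPM after PBS. The summed ciliated cell markers were 943 to 1132 TPM in the long-term group, against 532 to 548 TPM after PBS and 603 to 648 TPM after short-term PM2.5. Of the 8 ciliated cell markers, 6 were at 1 TPM in all libraries. All 8 rose in long-term against PBS, beside 9.51% of all tested genes rising. The part of these cells in Ces2c and Cyp2s1 was not tested.

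Cyp2f2, at chr7:27119955-27133660, was at 2519.6, 2527 and 2703 TPM after PBS, 534, 967 and 885 TPM after short-term and 1758, 1818 and 1894 TPM after long-term PM2.5. The long-term libraries lay below all PBS libraries, and the short-term libraries lay below both. The log2 fold change of long-term against PBS was -0.50 ± 0.19 (SE, limma adjusted p = 0.141). Without short-term replicate 1, which is in neither of those 2 groups but enters the shared spread, the adjusted p was 0.00235, and corrected the fold change was -0.69 (limma adjusted p = 0.00858). It also passed with median-ratio scaling (limma adjusted p = 0.0386) and in a fit of the 2 groups alone (limma adjusted p = 0.00294). With quantile normalization it did not pass. Of the 9 fits that each left out 1 library, it passed only without short-term replicate 1, and the highest limma adjusted p was 0.360.

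With short-term replicate 1 left out, 6 genes rose and 8 fell in long-term against PBS, where 15.4% of all tested genes rose and 7.18% fell. The rising genes were then Ces2c, Cyp2s1, Cyp4f16, Cyp4f18, Cyp4v3 and Ugt1a7c, and the falling ones included Ces1g, Cyp2d22, Cyp2f2, Cyp4b1, Fmo1, Fmo2 and Sult1d1. A fit of the PBS and long-term libraries alone called the same 14 genes, with 17.9% of all tested genes rising and 9.87% falling. With the correction and all libraries, 3 rose and 10 fell, against 13% and 12.7% of all tested genes. Without short-term replicate 2, 3 rose and 1 fell, beside 403 of all 13991 tested genes falling. With 1 library left out at a time, 794 to 2152 of all tested genes rose. With median-ratio scaling 2 rose and 3 fell, beside 10.5% and 3.66% of all tested genes, and with quantile normalization 3 and 5, beside 10.2% and 8.27%. Each of PBS replicates 1 and 3 and long-term replicates 1, 2 and 3, when left out, reduced the 2 rising genes to 1.

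**Figure D2:**
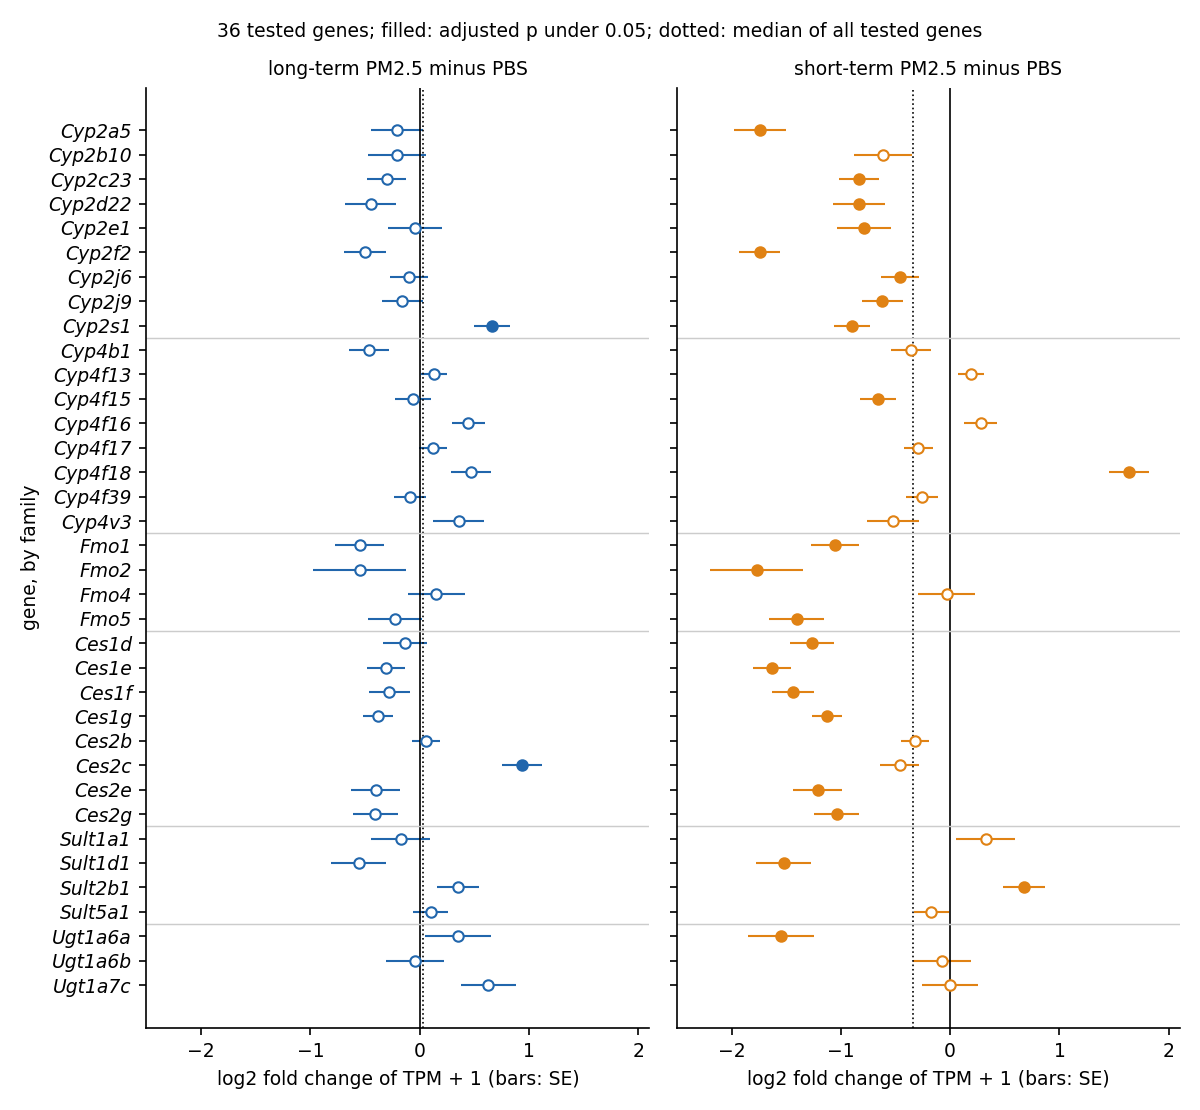
Log2 fold change of TPM + 1 against PBS for 36 tested genes, ordered by family, after long-term (left) and short-term PM2.5 (right), with SE bars, filled points for a limma adjusted p under 0.05 and a dotted line at the median of all tested genes. On the left, Ces2c and Cyp2s1 are filled, and on the right 20 genes are filled below 0 and Cyp4f18 and Sult2b1 above it.

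After short-term PM2.5, 21 of the 37 genes fell against PBS and 2 rose. The share that fell was 56.8%, beside 40.3% of all tested genes, and the share that rose was 5.41%, beside 11.7%. The median log2 fold change was -0.66 over the 37 genes and -0.34 over all tested genes. After the correction, 21 fell and 4 rose, with 26% and 23.6% of all tested genes, and 20 of the 21 falling genes were the same. Cyp2j6 dropped out and Cyp2b10 came in. Without short-term replicate 1, 22 fell and 3 rose, with 37.6% and 14% of all tested genes. With median-ratio scaling 18 fell and 5 rose, beside 27.8% and 24.5% of all tested genes, and with quantile normalization 18 and 4, beside 26.8% and 24.9%. Without PBS replicate 3, the rising count was 1, since Sult2b1 then had a limma adjusted p of 0.0610.

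Among the Cyp2 genes, 8 of 9 fell after short-term PM2.5, with a median of -0.83, beside 40.3% of all tested genes falling and their median of -0.34. Cyp2f2 fell by 1.74 on the log2 scale (SE 0.19, limma adjusted p = 0.000204) and corrected by 1.77, and its mean level went from 2583 ± 104 to 796 ± 230 TPM (SD, n = 3). Cyp2a5, an oxidase of coumarin and nicotine, was at 17.7, 17.8 and 25.6 TPM after PBS, 4.14, 7.68 and 4.61 TPM after short-term and 18.1, 13.9 and 20.1 TPM after long-term PM2.5. The short-term libraries stood apart from both other groups, which overlapped each other. Cyp2a5 fell by 1.74 (SE 0.23, limma adjusted p = 0.000489) and corrected by 1.61. Its near copy Cyp2a4 was listed at no more than 0.28 TPM, and how reads were divided between the 2 genes is uncertain.

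Cyp2b10, the lung and liver P450 induced through the receptor CAR, was at 133, 149 and 127 TPM after PBS, 51.2, 120 and 112 TPM after short-term and 121, 106 and 126 TPM after long-term PM2.5. Short-term replicate 1 was far below the other 8 libraries, and the difference from PBS, -0.62 ± 0.26, did not pass (SE, limma adjusted p = 0.0717). Without that library it was -0.23. It passed without short-term replicate 2, at -0.84 (limma adjusted p = 0.0129), and corrected, at -0.57 (limma adjusted p = 0.0380). Cyp2e1, which oxidises ethanol and benzene, was at 5.43, 5.76 and 9.75 TPM after PBS, 3.44, 4.56 and 2.70 TPM after short-term and 6.32, 5.19 and 8.48 TPM after long-term PM2.5. All short-term libraries were below all PBS libraries, and the fall of 0.78 passed (SE 0.25, limma adjusted p = 0.0227), but the adjusted p was 0.0929 without PBS replicate 3 and 0.0836 without short-term replicate 3. The median-ratio and quantile scalings also ended this call, with limma adjusted p of 0.0943 and 0.280. The other Cyp2 genes that fell were Cyp2c23, Cyp2d22, Cyp2j6, Cyp2j9 and Cyp2s1, by 0.46 to 0.90. Of 19 alternatives, 16 ended the call of Cyp2j6, whose corrected value was 0.025, and 4 ended that of Cyp2j9. Cyp2c23, Cyp2d22, Cyp2j6 and Cyp2j9 are named here after their values were seen.

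The Cyp4 genes, which mostly hydroxylate fatty acids and eicosanoids, had 1 gene that fell after short-term PM2.5 and 1 that rose, with a median of -0.28, beside 40.3% of all tested genes falling and 11.7% rising. Cyp4f18, which inactivates leukotriene B4 in mouse neutrophils, lies at chr8:71988482-72009668. It was at 8.91, 8.37 and 9.0 TPM after PBS, 36.95, 30.7 and 22.1 TPM after short-term and 14.0, 11.4 and 12.3 TPM after long-term PM2.5. The 3 groups did not overlap, and short-term was highest. Cyp4f18 rose by 1.63 ± 0.18 after short-term PM2.5 (SE, limma adjusted p = 0.000221) and by 1.54 corrected, and long-term libraries were lower than short-term ones by a log2 difference of -1.17 ± 0.18 (limma adjusted p = 0.00117). Summed neutrophil markers were 340 to 543 TPM after PBS, 958 to 1477 TPM after short-term and 338 to 557 TPM after long-term PM2.5. All 7 neutrophil markers rose in short-term against PBS, beside 11.7% of all tested genes, and none passed in long-term against PBS. Their part in the level of Cyp4f18 was not tested.

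Cyp4b1, a lung P450 that activates the furan toxin ipomeanol, was at 392, 385 and 389.6 TPM after PBS, 213, 351 and 372 TPM after short-term and 278, 282 and 286 TPM after long-term PM2.5. The long-term libraries were all below PBS and close together, while the short-term libraries spread across the long-term range. The difference from PBS was -0.46 ± 0.18 after long-term PM2.5 (SE, limma adjusted p = 0.151) and -0.36 ± 0.18 after short-term PM2.5 (limma adjusted p = 0.114). Without short-term replicate 1 the long-term value passed (limma adjusted p = 0.00137), and corrected it was -0.66 (limma adjusted p = 0.0052). With other single libraries left out, its limma adjusted p reached 0.356. Cyp4f13 passed in no comparison as deposited, at 18.9 to 21.5 TPM after PBS, 21.8 to 25.1 TPM after short-term and 21.4 to 23.4 TPM after long-term PM2.5. With median-ratio scaling and quantile normalization it passed in short-term against PBS, at 0.53 and 0.52 (limma adjusted p = 0.020 and 0.0130), and in long-term against short-term, at -0.43 in both (limma adjusted p = 0.0487 and 0.0363).

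Cyp4v3, a fatty acid hydroxylase, was at 19.9, 19.8 and 21.9 TPM after PBS, 8.65, 19.3 and 16.1 TPM after short-term and 29.2, 26.3 and 24.3 TPM after long-term PM2.5. Every long-term library was above every other library. Only the contrast of long-term with short-term PM2.5 passed, at 0.88 ± 0.24 (SE, limma adjusted p = 0.0125), and corrected it was 0.26 (limma adjusted p = 0.0364). Cyp4f16, named after its values were seen, had 11.8 to 13.6 TPM after PBS, 14.1 to 19.1 TPM after short-term and 17.2 to 18.3 TPM after long-term PM2.5. Neither exposure passed against PBS as deposited. Corrected, short-term PM2.5 was higher than PBS by 0.37 (limma adjusted p = 0.00977).

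Of the 5 tested flavin monooxygenases, 4 fell after short-term PM2.5, with a median of -1.41, beside 40.3% of all tested genes falling and their median of -0.34. Fmo2 was at 262, 294 and 217 TPM after PBS, 29.3, 127 and 109 TPM after short-term and 174, 162 and 188 TPM after long-term PM2.5. The 3 groups did not overlap, and short-term replicate 1 lay far below the other short-term libraries. Fmo2 fell by 1.77 after short-term PM2.5 (SE 0.43, limma adjusted p = 0.00704), by 1.21 corrected and by 1.11 without short-term replicate 1. Fmo2 has one of the longer transcripts here, of 4066 bases, against a median of 2297 bases for the tested enzymes.

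Fmo1, at 358, 336 and 276 TPM after PBS, 101, 195 and 188 TPM after short-term and 227, 216 and 215 TPM after long-term PM2.5, had the same order of groups. Its fall was 1.05 after short-term PM2.5 (SE 0.22, limma adjusted p = 0.00374). After long-term PM2.5 the value was -0.55 ± 0.22 (limma adjusted p = 0.164), with 0.00297 without short-term replicate 1. With other single libraries left out, that limma adjusted p reached 0.442. Fmo5 was at 18.0, 15.4 and 17.0 TPM after PBS, 3.25, 8.29 and 6.66 TPM after short-term and 14.9, 13.2 and 14.5 TPM after long-term PM2.5. It fell by 1.41 after short-term PM2.5 as deposited (SE 0.25, limma adjusted p = 0.0017) and by 0.69 corrected, and its transcript of 5197 bases is the longest among the 37 genes.

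**Figure D3:**
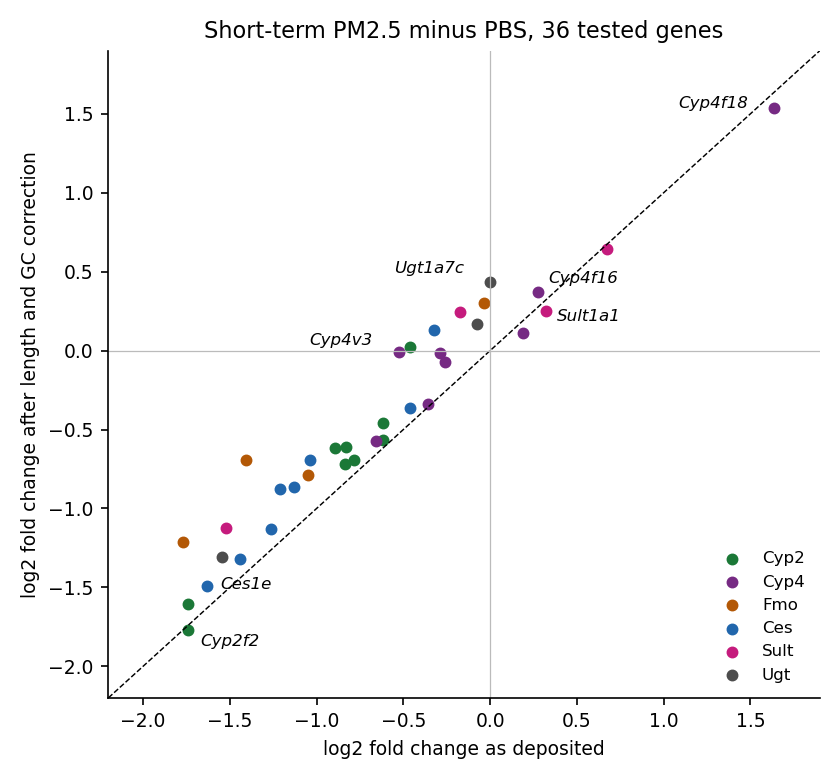
Log2 fold change of short-term PM2.5 against PBS for 36 tested genes as deposited (horizontal axis) and after the length and GC correction (vertical axis), coloured by family, with a dashed line where both are equal. Most points lie above the line, Cyp2f2 and Cyp4f18 lie close to it, and Cyp4v3 moves from -0.52 to -0.01.

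Of the 8 tested carboxylesterases, 6 fell after short-term PM2.5, with a median of -1.17, beside the same 40.3% and -0.34 of all tested genes, and Ces2b and Ces2c did not pass. Ces1d, which hydrolyses triacylglycerol as well as drugs, was at 353, 364 and 332 TPM after PBS, 97.3, 186 and 168 TPM after short-term and 324, 315 and 316 TPM after long-term PM2.5. The short-term libraries were far below all others, while long-term libraries were just under PBS. Ces1d fell by 1.27 (SE 0.20, limma adjusted p = 0.000995) and by 1.13 corrected, and the long-term value of -0.13 ± 0.20 did not pass (limma adjusted p = 0.818).

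Ces1e was at 5.88, 7.07 and 5.32 TPM after PBS, 0.95, 1.80 and 1.15 TPM after short-term and 4.18, 4.94 and 4.98 TPM after long-term PM2.5, a fall of 1.63 after short-term PM2.5 (SE 0.17, limma adjusted p = 0.000175). Ces1f was at 2.73, 3.55 and 3.48 TPM after PBS, 0.25, 0.82 and 0.67 TPM after short-term and 1.92, 2.41 and 3.29 TPM after long-term PM2.5, a fall of 1.44 (SE 0.19, limma adjusted p = 0.000456). Both genes were under every PBS and long-term library in all 3 short-term libraries. Ces1g, a lipid hydrolase, fell by 1.13, Ces2e by 1.21 and Ces2g by 1.04, and the 3 kept their call after the correction. These genes are close copies of each other within 2 clusters on chromosome 8, so the division of reads between them is uncertain.

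Summed adipocyte markers were 50.9 to 158 TPM after PBS, 28.0 to 69.6 TPM after short-term and 49.5 to 69.6 TPM after long-term PM2.5, with 4 of 6 markers at 1 TPM in all libraries. Summed fibroblast markers were 4653 to 5512, 1916 to 2559 and 3523 to 3825 TPM in the same order, with all 6 at 1 TPM in all libraries. Summed club cell markers were 147834 to 183959, 111077 to 132252 and 157586 to 181519 TPM, with all 12 at 1 TPM in all libraries. Nearly all of that sum was Scgb1a1, at 144212 to 180663, 106890 to 127919 and 150190 to 173402 TPM, so it says little about the other markers. Summed endothelium markers were 3904 to 4228, 3071 to 3511 and 2651 to 2987 TPM, with all 7 at 1 TPM in all libraries, and summed alveolar type 1 markers were 6090 to 7108, 6152 to 8955 and 4833 to 5427 TPM, with all 5. In short-term against PBS, 4 fibroblast markers fell and none rose, 3 adipocyte markers fell and none rose, and 5 club cell markers fell and 2 rose. In the same comparison 4 endothelium markers fell and none rose, and 3 alveolar type 1 markers fell and 1 rose. These counts stand beside 40.3% of all tested genes falling and 11.7% rising. In long-term against PBS, 5 club cell markers rose and 1 fell. There 5 endothelium markers and 1 alveolar type 1 marker fell, and none of either list rose. Of all tested genes, 9.51% rose and 1.72% fell in that comparison. The part of these cells in the falls of Cyp2f2, the Fmo genes and the carboxylesterases was not tested.

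Among the 4 tested sulfotransferases, 1 fell and 1 rose after short-term PM2.5, beside 40.3% and 11.7% of all tested genes. Sult1a1, which conjugates phenols, was at 49.5, 43.2 and 41.0 TPM after PBS, 32.1, 72.1 and 75 TPM after short-term and 36.6, 43.1 and 38.4 TPM after long-term PM2.5. Short-term replicate 1 was the lowest of all 9 libraries and the other 2 short-term libraries the highest, so the value of 0.32 ± 0.27 did not pass (SE, limma adjusted p = 0.325). Without replicate 1, Sult1a1 was among the 3 rising genes.

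Sult1d1, which conjugates catecholamines, was at 3.49, 4.17 and 4.81 TPM after PBS, 0.22, 1.77 and 0.68 TPM after short-term and 2.33, 2.47 and 2.64 TPM after long-term PM2.5. No groups overlapped, and it fell by 1.52 after short-term PM2.5 (SE 0.25, limma adjusted p = 0.00127) and by 1.12 corrected. Sult2b1, which conjugates cholesterol and other hydroxysteroids, was at 3.43, 3.11 and 2.40 TPM after PBS, 6.67, 4.69 and 4.78 TPM after short-term and 3.82, 3.37 and 5.09 TPM after long-term PM2.5. Its short-term libraries were above PBS and overlapped with long-term ones, and it rose by 0.68 ± 0.19 (SE, limma adjusted p = 0.0140), a call lost without PBS replicate 3. Sult5a1 had 7.24 to 7.97 TPM after PBS, 6.11 to 7.51 TPM after short-term and 7.39 to 10.0 TPM after long-term PM2.5 and passed in no comparison, and Sult1c1 reached at most 0.32 TPM.

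The 3 tested glucuronosyltransferases all belong to Ugt1a, a locus at chr1:88055411-88220002 whose genes have first exons of their own and share the remaining exons, so reads of the shared exons cannot be assigned with certainty. Ugt1a6a, which conjugates phenols, was at 9.55, 10.2 and 8.67 TPM after PBS, 1.14, 4.85 and 2.67 TPM after short-term and 14.9, 10.3 and 12.3 TPM after long-term PM2.5. No groups overlapped, and long-term was highest. Ugt1a6a fell by 1.55 after short-term PM2.5 (SE 0.30, limma adjusted p = 0.00279), while the long-term value against PBS, 0.35 ± 0.30, did not pass (limma adjusted p = 0.626).

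Its near copy Ugt1a6b was at 6.77, 13.9 and 6.17 TPM after PBS, 6.16, 9.42 and 8.54 TPM after short-term and 7.84, 8.65 and 7.86 TPM after long-term PM2.5. PBS replicate 2 was above all other libraries, the groups overlapped, and no comparison passed. Ugt1a7c was at 2.45, 3.29 and 2.97 TPM after PBS, 1.76, 4.54 and 2.83 TPM after short-term and 6.41, 5.09 and 3.80 TPM after long-term PM2.5. Its long-term libraries were above PBS, with a log2 value of 0.63 ± 0.25 that did not pass (SE, limma adjusted p = 0.165). Without short-term replicate 1 the adjusted p was 0.0336, and corrected it was 0.0218. With other single libraries left out, the limma adjusted p reached 0.504. Summed over the 7 Ugt1a genes, which depends less on how reads were divided within the locus, the level was 18.9, 27.4 and 18.0 TPM after PBS, 9.12, 19.0 and 14.1 TPM after short-term and 29.3, 24.1 and 23.9 TPM after long-term PM2.5. Long-term libraries overlapped with PBS through PBS replicate 2. Ugt2b34 reached at most 0.03 TPM.

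**Figure D4:**
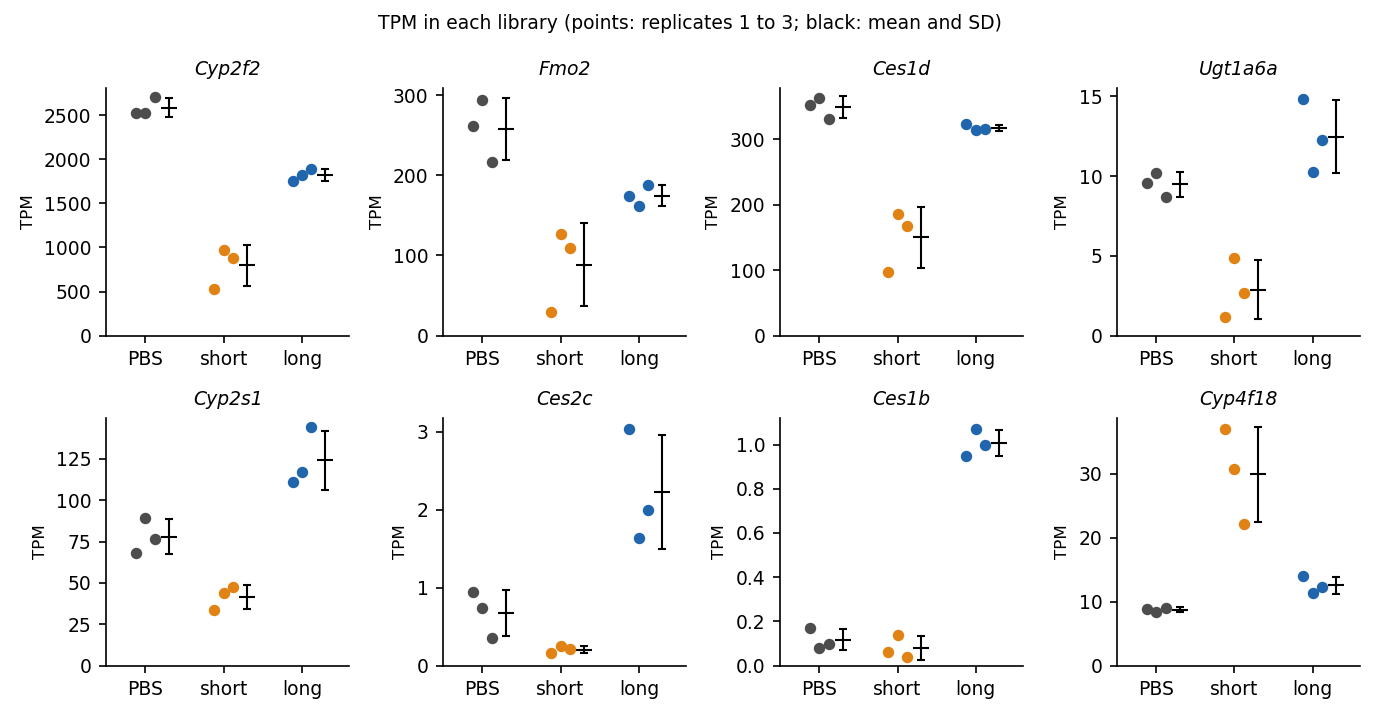
Level in TPM of 8 genes in each library, with points for replicates 1 to 3 of each group and black bars for the mean and SD, each panel on its own axis from 0. Cyp2f2, Fmo2, Ces1d and Ugt1a6a are lowest after short-term PM2.5, Cyp2s1, Ces2c and Ces1b are highest after long-term PM2.5, and Cyp4f18 is highest after short-term PM2.5.

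Between the exposures, 21 of the 37 genes were higher after long-term than after short-term PM2.5 and 1, Cyp4f18, was lower. The share of 56.8% stands beside 43.4% of all tested genes that were higher, and 2.7% beside 7.08% that were lower. The median log2 difference was 0.60 over the 37 genes and 0.41 over all tested genes. Corrected, 12 were higher and 2 lower, against 19.3% and 22.3% of all tested genes, and those 12 were all among the 21. With median-ratio scaling 13 were higher and 5 lower, beside 26.9% and 19.7% of all tested genes, and with quantile normalization 11 and 5, beside 21.3% and 21.4%. The values of largest size were 1.9 ± 0.30 for Ugt1a6a (SE, limma adjusted p = 0.00132), 1.56 for Cyp2s1, 1.53 ± 0.23 for Cyp2a5 (limma adjusted p = 0.00102) and 1.40 for Ces2c. Corrected they were 1.49, 1.25, 1.21 and 1.11, and all 4 passed. Ces2c met the filter on low values only through the long-term libraries, so its call lends no support to a difference here either. The higher count was 14 without long-term replicate 1, beside 3917 of all 13991 tested genes, and 25 without short-term replicate 2. With 1 library left out at a time, the all-gene count ran from 3917 to 8057. Without short-term replicate 1, 20 were higher and 3 lower, with Cyp4b1 and Sult1a1 added to Cyp4f18, beside 39.9% and 7.88% of all tested genes. This contrast and that of short-term with PBS share the short-term libraries.

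Most of the 69 untested genes stayed near 0, but some of them passed the threshold in a fit without the filter on low values. Ces1b was at 0.17, 0.08 and 0.10 TPM after PBS, 0.06, 0.14 and 0.04 TPM after short-term and 0.95, 1.07 and 1.00 TPM after long-term PM2.5. The long-term libraries were all above the other 6, by 0.85 ± 0.05 on the log2(TPM + 1) scale against PBS (SE, limma adjusted p = 5.46e-05). Its neighbour Ces1c was at 0.08, 0 and 0 TPM after PBS, 0, 0.10 and 0 TPM after short-term and 0.58, 0.14 and 0.53 TPM after long-term PM2.5 (limma adjusted p = 0.0367 against PBS). Cyp2c70, a P450 known from bile acid metabolism in mouse liver, was listed at 0 in each PBS library, and its long-term values were 0.24, 0.28 and 0.20 TPM (limma adjusted p = 0.0011). The fatty acid hydroxylase Cyp4a12b went the other way, from 0.81, 1.66 and 1.95 TPM after PBS to 0.20, 0.18 and 0.11 TPM after short-term PM2.5 (limma adjusted p = 0.0021). These 4 genes, as well as Cyp2a4 and Ces2b, are named after their values were seen, and at levels near or under 1 TPM the values rest on few reads. The 4 were picked by these same values, and the share of all genes passing in that fit is not given here. Their p-values thus lend no support to a difference.

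The partners and regulators of these enzymes were taken from a list of 37 genes, of which 35 were in the table and 29 were tested. It holds electron donors, suppliers of sulfate and glucuronic acid, epoxide hydrolases, enzymes that remove the conjugates, nuclear receptors and other factors. After long-term PM2.5, 1 of the 29 rose and none fell, beside 9.51% and 1.72% of all tested genes. At an unadjusted p under 0.05 in limma, 4 were higher and 1 lower. Without the share of all tested genes, which is not given here, these counts cannot be read as a difference of the partner genes. The gene that rose was Gusb, the lysosomal enzyme that removes glucuronic acid. It was at 24.9, 27.2 and 26.7 TPM after PBS, 22.3, 39.0 and 32.8 TPM after short-term and 59.8, 50.6 and 52.6 TPM after long-term PM2.5, and rose by 1.02 ± 0.18 (SE, limma adjusted p = 0.00483). The summed macrophage markers given above moved in the same group, and their part in Gusb was not tested. Corrected, Gusb, Vdr and Alas1 were higher in long-term against PBS, beside 13% of all tested genes. Cyb5a, Papss2, Ephx1 and Ephx2 were then lower, beside 12.7%. Vdr, Cyb5a, Papss2 and Ephx2 are named here after their values were seen.

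After short-term PM2.5, 17 of the 29 fell and none rose, beside 40.3% of all tested genes falling, with a median of -0.48. Corrected, 10 fell and 5 rose, beside 26% and 23.6% of all tested genes. Ephx1, the microsomal epoxide hydrolase that acts on P450 products, was at 173, 175 and 189 TPM after PBS, 77.3, 95.6 and 99.7 TPM after short-term and 135, 138 and 146 TPM after long-term PM2.5. The 3 groups did not overlap, and the fall of 0.98 after short-term PM2.5 (SE 0.12, limma adjusted p = 0.000298) was 1.05 corrected. The aryl hydrocarbon receptor Ahr, which senses planar aromatic compounds, was at 27.3, 25.6 and 32.6 TPM after PBS, 6.40, 12.2 and 10.8 TPM after short-term and 25.8, 24.6 and 18.7 TPM after long-term PM2.5. Its fall of 1.48 (SE 0.22, limma adjusted p = 0.000778) was 0.73 corrected.

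Rxra, the shared partner of many nuclear receptors, fell by 0.76 after short-term PM2.5 as deposited (limma adjusted p = 0.00126) and did not pass corrected (limma adjusted p = 0.0593). The glucocorticoid receptor Nr3c1 fell by 1.41 and the arylsulfatases Arsb and Arsa by 1.10 and 0.52, and of these 3 Arsa did not pass corrected. Between the exposures, 15 of the 29 were higher after long-term than after short-term PM2.5 and none was lower, beside 43.4% of all tested genes, and corrected 9 were higher and 3 lower, beside 19.3% and 22.3% of all tested genes. Por, the reductase that supplies electrons to P450, was at 232, 207 and 238 TPM after PBS, 181, 165 and 193 TPM after short-term and 258, 260.5 and 277 TPM after long-term PM2.5. Long-term was above short-term PM2.5 by 0.56 ± 0.10 (SE, limma adjusted p = 0.00272), with no overlap, and by 0.33 corrected. Alas1, the first enzyme of haem synthesis, was higher by 0.92 ± 0.17 in the same contrast (limma adjusted p = 0.00225) and by 0.52 corrected.

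Some regulators on the list were under the filter on low values. CAR, encoded by Nr1i3, reached at most 0.15 TPM, and the liver factor Hnf4a at most 0.13 TPM. PXR, encoded by Nr1i2, was at 0.32, 0.26 and 0.54 TPM after PBS, 0.12, 0.18 and 0.11 TPM after short-term and 0.95, 0.96 and 1.46 TPM after long-term PM2.5. It was below the filter and was not tested, and its 3 groups did not overlap. Nr1i2, Nr1i3 and Hnf4a are named after their values were seen.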

How the data were processed

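Whole-lung RNA of 9 samples was sequenced after oligo(dT) selection and DSN processing on the DNBSEQ platform, per the labels' protocols. The authors deposited 1 table of TPM values for 18875 genes, whose making involved RSEM, HISAT2, Bowtie2 and DESeq2 per the submitters' processing notes. Their roles and versions are not given in the sources used here, and build GRCm38.p6 is named for 8 samples. The 106 enzymes were found by symbol, and members, gene lists and tests were chosen with earlier results of these data known.

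From the deposited TPM, log2(TPM + 1) was fitted with limma 3.58.1 (R 4.3.3) over 3 groups of 3 libraries, with 6 residual degrees of freedom and an intensity trend. Tests were two-sided, in 3 comparisons, over the 13991 genes that reached 1 TPM in 3 or more libraries, with Benjamini-Hochberg adjustment over all of them and a threshold of 0.05. An exact permutation test of 3 against 3 libraries can give no p under 0.1. The fit was tested on simulated data.

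The length and GC correction took natural splines (5 degrees of freedom each) of the longest protein-coding GENCODE M21 transcript out of each library; 199 tested genes had no length and were left out of it. In all, 19 alternatives were run. One of them, the correction without short-term replicate 1, was chosen after seeing the data. Gene positions and promoter windows are from RefSeq on GRCm38.p6, matched by gene ID. Python 3.11.15 was used for tables and figures.

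Genes were named by rule: the 3 of highest mean TPM in each family, the called genes of largest change in each comparison (at most 10 a direction), a list of 19 genes of known lung or conjugation roles, and the called partner genes of smallest p (at most 6 a comparison). Other genes are said to be named after their values were seen. The 2 partner genes with no match in the table were not analysed here. One gene that is in the counts is not reported here by name or value.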

Additional observations from a re-analysis of the deposited data

Results flagged for a closer look

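Cyp2s1 lay on opposite sides of PBS in the 2 exposure groups. It rose by 0.66 on the log2(TPM + 1) scale after long-term PM2.5 and fell by 0.90 after short-term PM2.5, and the test of long-term against short-term libraries gave 1.56, with a limma adjusted p of 0.000159 and all 3 long-term libraries above all 3 short-term ones. The difference was 1.25 after the length and GC correction. The rise after long-term PM2.5 against PBS did not pass in 5 of the 9 fits that each left out 1 library. Groups of 3 libraries are too small for a check of single outlying values.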

How the results depend on the processing

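Depth is unknown, so what it limits cannot be computed, and genes near 1 TPM rest on few reads. For each change below the cause was not tested, except that a fit of fewer libraries or genes has fewer of both by construction. Counts of genes in long-term against PBS were 2 rising enzymes as reported, 5 with no filter on low values, 1 with a mean of at least 5 TPM, 6 with 2 groups alone and 5 with the correction without short-term replicate 1. Falling enzymes, 0 as reported, numbered 3 with median-ratio scaling, 5 with quantile normalization, 8 with 2 groups alone, 10 corrected and 16 corrected without short-term replicate 1. Over all tested genes, 1330 rising became 748 (mean of at least 5 TPM), 2500 (2 groups alone) and 2164 (corrected without short-term replicate 1), and 241 falling became 512 (median-ratio), 1157 (quantile), 1381 (2 groups alone), 1751 (corrected) and 2861 (corrected without short-term replicate 1).

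In short-term against PBS, the 2 rising enzymes were 1 with a mean of at least 5 TPM, 5 with median-ratio scaling, 4 with quantile normalization, 4 corrected and 4 corrected without short-term replicate 1. Over all tested genes, 1632 rising became 3421, 3477, 3257 and 3052 under those last 4 settings, and 5636 falling became 3745 (quantile), 3586 (corrected) and 3368 (corrected without short-term replicate 1). In long-term against short-term, the 21 higher enzymes were 12 with a mean of at least 5 TPM and 13, 11, 12 and 12 under the same 4 settings, and the 1 lower enzyme became 5, 5, 2 and 3. Over all tested genes, 6070 higher became 3762, 2977, 2659 and 2403, and 991 lower became 2756, 2996, 3071 and 2869. The all-gene median of short-term against PBS moved from -0.34 to -0.05 with median-ratio scaling.

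With 1 library left out at a time, rising and falling enzymes in long-term against PBS ran from 1 to 6 and from 0 to 8, in short-term against PBS from 1 to 3 and from 19 to 24, and in long-term against short-term from 14 to 25 and from 1 to 3. Over all tested genes these ranges were 794 to 2152 and 49 to 1005, 1215 to 1957 and 3906 to 7240, and 3917 to 8057 and 615 to 1111.

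Replicate numbers did not pair the libraries: same-numbered libraries of different groups correlated in their deviations from -0.29 to 0.26, and a fit with the replicate number as a block called 2 rising and 0 falling enzymes in long-term against PBS, 2 and 20 in short-term against PBS and 18 and 1 between exposures, and 132 falling genes of all tested in long-term against PBS.

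Among the genes named by rule, sign changes were seen only for genes that had not passed. Among the others, under the correction Cyp2j6 in short-term against PBS moved from -0.46 to 0.025 and Ces2b in long-term against short-term from 0.38 to -0.18, and both had passed as deposited. For the named genes in long-term against PBS these were Cyp4f13 at -0.040 (corrected, with or without short-term replicate 1), Sult5a1 at -0.046 (quantile), and, with 1 library left out, Sult5a1 ran from -0.026 to 0.17, Ugt1a6b ran from -0.24 to 0.29 and Cyp2e1 ran from -0.21 to 0.19. In short-term against PBS, under median-ratio, quantile, corrected and corrected without short-term replicate 1, Sult5a1 was at 0.14, 0.28, 0.25 and 0.15, Ugt1a6b at 0.24, 0.35, 0.17 and 0.15 and Ugt1a7c at 0.25, 0.40, 0.43 and 0.44. Cyp4v3 was at 0.056 in the last of these. With 1 library left out, Ugt1a6b ran from -0.27 to 0.26 and Ugt1a7c ran from -0.26 to 0.24. In long-term against short-term, Sult5a1 was at -0.073, -0.32, -0.23 and -0.13 and Ugt1a6b at -0.32, -0.55, -0.38 and -0.36 under the 4 settings. Cyp4b1 was at 0.00042 (quantile), and, corrected without short-term replicate 1, Cyp2b10 was at -0.12 and Fmo1 at -0.046. With 1 library left out, Cyp4b1 ran from -0.36 to 0.045 and Ugt1a6b ran from -0.13 to 0.14. Of the named genes' other values, 1342 kept direction and side of the threshold, 83 passed only under an alternative and 49 no longer passed.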

Other observations

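Several of the enzyme genes lie next to each other, and some neighbours shared a pattern while others did not. The adjacent Ces1d, Ces1e, Ces1f and Ces1g all fell in short-term against PBS, with log2 fold changes of -1.27, -1.63, -1.44 and -1.13. The neighbours Fmo1 and Fmo2 on chromosome 1 also both fell, at -1.05 and -1.77. These falls stand beside 40.3% of all tested genes falling. Fmo4, on the other side of Fmo1, did not pass, at -0.033 (limma adjusted p = 0.922). Fmo4 is named here after its values were seen. Other neighbours differed in level or direction. In the Ces1 cluster on chromosome 8, the neighbours Ces1b (chr8:93056725-93080017) and Ces1c (chr8:93099015-93131283) had mean levels of 0.117 and 0.0267 TPM after PBS and 1.01 and 0.417 TPM after long-term PM2.5. The next gene, Ces1d (chr8:93166072-93197804), had 349.6 and 318 TPM in the same groups. In the Ces2 cluster, Ces2c (chr8:104847068-104854483) had 0.68 TPM after PBS and 2.23 TPM after long-term PM2.5, while Ces2g (chr8:104961596-104969537) had 17.9 and 13.1 TPM.

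In the Cyp2 cluster on chromosome 7, Cyp2b10 and Cyp2f2, with means over 9 libraries of 116 and 1734 TPM, are separated by Cyp2a5, with a mean of 14.4 TPM, and by genes with means under 1 TPM, such as Cyp2b13, Cyp2b9 and Cyp2b19. Differences between neighbours were not tested. The Cyp2b genes other than Cyp2b10 are named after their values were seen.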
